A study of Mus musculus with 3 samples.

Results

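A set of 10 genes, the leukocyte adhesion molecules of endothelium, was examined in endothelial cells of the adult mouse kidney cortex. They were chosen by name, as endothelial adhesion molecules, selectins and sialomucins, with earlier results of these data known. They are Pecam1, Icam1, Icam2 and Vcam1 of the immunoglobulin superfamily, the selectins Sele and Selp, the sialomucins Cd34, Podxl and Emcn, and Cd99l2, a relative of Cd99. Of these 10 genes 9 had a probeset of their own, the set of array probes that measures 1 gene, out of 19938 such genes on the array. Each of the 9 had 1 probeset. Selp, the gene of P-selectin, had no probeset of its own in the probe table and was not analysed here.

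The data come from 3 samples of 1 group, called replicates 1, 2 and 3, each from 1 adult kidney of the Tie2-GFP transgenic line Tg(TIE2GFP)287Sato on a mixed, mainly CD-1 background, of unknown sex and with no treatment. GFP in this line is driven by the promoter of Tek (Tie2), so a cell was sorted because it used that promoter. After removal of the medulla and collagenase digestion of the cortex, a 40 µm mesh held back the glomeruli, and the filtrate was treated with trypsin before the sort for GFP. The study calls its samples independent biological samples, and the labels do not say whether the 3 kidneys came from separate mice. The SDs below measure only the spread between these samples. The p-values combine a gene's own spread between them with that of other probesets in the same samples. For a gene with 3 equal values they use only the spread of other probesets. Other endothelial samples of the study, from embryonic kidney, medulla and glomeruli, were not analysed here. Since there is 1 group, no conditions could be compared.

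White blood cells leave the blood in steps. Selectins on the vessel wall catch and roll them, ICAM and VCAM proteins hold them through integrins on the leukocyte, and PECAM1 and the CD99 proteins act at the cell borders they pass through. E-selectin, ICAM1 and VCAM1 are known for their induction by inflammatory cytokines, whereas ICAM2 and PECAM1 are made by resting endothelium. CD34, podocalyxin and endomucin are heavily glycosylated sialomucins of the vessel surface, which can carry selectin ligands in specialised venules and are otherwise thought to limit contact.

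Values are log2 signals, and each gene was tested for a mean above and for a mean below a signal of 100, which is 6.64 on the log2 scale and the raw level under which the study's methods set probesets aside. "Above" and "below" refer to this test (limma, one-sided, Benjamini-Hochberg adjusted over all 35557 probesets, adjusted p under 0.05). Signals of different probesets were not ranked against each other, because probes differ in how strongly they bind. Precision is limited by there being only 3 arrays. The array values held many ties: in 40.5% of all probesets the 3 samples had the same value to 5 decimals, and in a further 23.5% 2 of the 3 did. A probeset with 3 equal values gives no spread of its own and was tested with the usual spread of the others at its level. Of the 9 genes, Podxl had 3 equal values, as had 51.2% of all genes and 27.5% of the 6127 genes whose mean signal reached 100. Pecam1, Icam1, Sele and Cd99l2 had 2 equal values.

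Of the 10 genes 6 had an entry in the RefSeq promoter table of build GRCm38.p6, and Pecam1, Icam2, Vcam1 and Podxl had none. The 250 bases before the start site are shown for Sele, the gene below the limit, and for Cd34 and Emcn, which were above it and whose samples differed most among the sialomucins. Capitals mark the letters AGGAAG, or CTTCCT where they lie on the other strand, and TATAAA. The windows lie on the plus strand, at chr1:164047984-164048233 for Sele, chr1:194938571-194938820 for Cd34 and chr3:137340828-137341077 for Emcn.
Sele: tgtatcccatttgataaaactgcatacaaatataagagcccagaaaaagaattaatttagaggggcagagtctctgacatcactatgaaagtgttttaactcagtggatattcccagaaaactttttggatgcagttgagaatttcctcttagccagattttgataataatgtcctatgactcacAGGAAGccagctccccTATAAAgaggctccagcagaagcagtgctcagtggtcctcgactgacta
Cd34: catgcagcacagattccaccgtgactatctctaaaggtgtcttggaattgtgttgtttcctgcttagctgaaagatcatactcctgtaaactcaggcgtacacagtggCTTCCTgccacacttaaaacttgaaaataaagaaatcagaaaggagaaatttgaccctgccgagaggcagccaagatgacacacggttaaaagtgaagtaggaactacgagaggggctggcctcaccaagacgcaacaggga
Emcn: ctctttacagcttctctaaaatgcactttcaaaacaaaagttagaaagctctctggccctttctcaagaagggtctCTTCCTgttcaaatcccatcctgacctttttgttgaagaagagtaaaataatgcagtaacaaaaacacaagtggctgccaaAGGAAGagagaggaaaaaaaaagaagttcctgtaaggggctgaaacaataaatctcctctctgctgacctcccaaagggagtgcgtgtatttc

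AGGAAG holds the GGAA core that ETS factors bind, and TATAAA is the TATA box. Searched on both strands, AGGAAG was in 4 of the 6 windows (Sele, Selp, Cd34 and Emcn) and in 29.2% of all 27025 windows of this length. TATAAA was in 1 of the 6, at bases -49 to -44 of Sele, and in 13.0% of all windows. The NF-kB motif was searched only as GGGRNNYYCC, where R is A or G, Y is C or T and N is any base. It was in 0 of the 6 and in 7.0% of all windows. Looser forms were not searched, so 0 matches do not show that a window lacks an NF-kB site. CCCGCCC, the letters of a GC box, was in 1 of the 6, that of Cd99l2, and in 23.6% of all windows. Its 2 matches in Cd99l2 overlap each other. Different motifs did not overlap. These matches are letters in a window and not measured binding. In the same reference Icam2 and Pecam1 lie on chromosome 11 with 2 coding genes between them, Ern1 and Tex2.

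In the cortical endothelial cells 7 of the 9 measured adhesion genes were above a signal of 100, 1 was below and 1 was neither. Over all 19938 genes 18.0% were above and 60.2% were below, and these shares are the comparison for all later counts of listed genes. Because the 9 genes were chosen with earlier results of these data known, their excess over these shares is no independent finding. Without replicate 3 only 4 of the 9 were above and Sele was no longer below, and without replicate 1 or 2 the counts were 5 above and 1 below. Over all genes 1504 to 1798 were then above and 2249 to 7083 below, against 3580 and 12001 with all samples. With no test, 7 of the 9 were at 100 or more in all 3 samples and 2 were under 100 in all 3, against 28.0% and 66.8% of all genes. The median of the mean log2 signals was 9.26 over the 9 genes and 5.88 over all genes. Pecam1, Icam2, Vcam1, Cd34, Podxl, Emcn and Cd99l2 were above, Sele was below, and Icam1 lay at the limit. In a sorted population fewer cells that make a transcript and less of it per cell cannot be told apart.

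**Figure D1:**
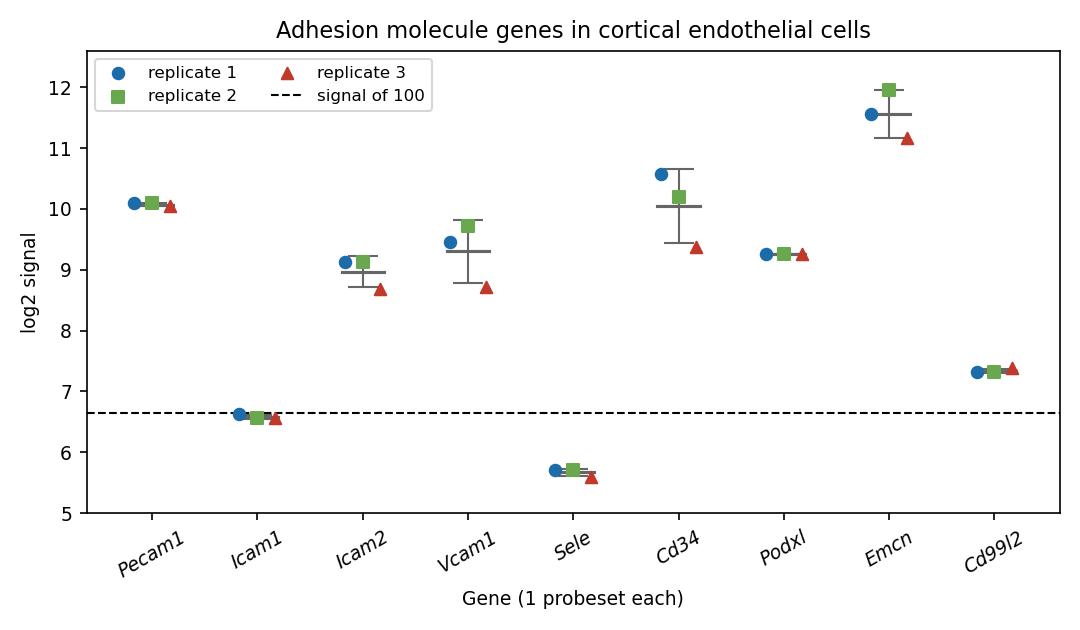
Log2 signal (y axis) of the 9 measured adhesion genes (x axis) in replicates 1, 2 and 3 of the cortical endothelial cells, with the mean as a horizontal bar, the SD as error bars and a signal of 100 as a dashed line. The 3 samples of Sele lie between 5.60 and 5.70, under the line, those of Icam1 between 6.56 and 6.62, just under it, and all samples of the other 7 genes lie over it.

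Pecam1 encodes the adhesion protein CD31 of endothelial cell borders, platelets and leukocytes. Replicates 1 and 2 both had a log2 signal of 10.09, and replicate 3 had 10.05. The 3 samples were nearly the same, at a signal of 1060 to 1086. The mean of 10.07 ± 0.02 (SD, n = 3) was 10.78 times the limit (adjusted p = 0.000183 from limma). Without replicate 3, which leaves a pair of equal values, the adjusted p was 0.088.

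Icam2 encodes a ligand of the leukocyte integrin LFA-1 that resting endothelium carries. The log2 signals of replicates 1, 2 and 3 were 9.13, 9.12 and 8.68. Replicates 1 and 2 were alike and replicate 3 was lower. The mean was 8.97 ± 0.26 (SD, n = 3), or 5.03 times the limit (adjusted p = 0.00296 from limma).

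Vcam1 encodes the ligand of the integrin VLA-4 on lymphocytes and monocytes. The log2 signals of replicates 1, 2 and 3 were 9.46, 9.72 and 8.71. The signal in replicate 2, 844, was 2.02 times that in replicate 3, 419. All samples still exceeded the limit, and the mean of 9.30 ± 0.52 (SD, n = 3) was above it (adjusted p = 0.00927 from limma). Vcam1 is also made by other cells of the kidney, among them stromal cells and some tubule cells.

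Icam1 encodes the cytokine-induced ligand of LFA-1 and Mac-1. It was the gene closest to the limit, with a log2 signal of 6.62 in replicate 1 and 6.56 in replicates 2 and 3. The mean of 6.58 ± 0.03 (SD, n = 3) had a 95% interval of 6.43 to 6.73, which includes the limit. It was neither above nor below 100 (limma, adjusted p = 0.195 for a lower mean), although each sample lay just under it, at signals of 94.4 to 98.4. When the SD of probesets with 3 equal values was kept at 0, the adjusted p was 0.0494.

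Sele, the gene of E-selectin, was the 1 measured selectin. Activated endothelium makes this receptor, and resting endothelium makes little of it. Replicates 1 and 2 both had a log2 signal of 5.70, and replicate 3 had 5.60, at signals of 48.5 to 52.0. On average it was at 5.67 ± 0.06 (SD, n = 3) and below 100 (adjusted p = 0.000934 from limma). Without replicate 3, which leaves a pair of equal values, the adjusted p was 0.071. A signal under the limit is not a measure of absence.

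All 3 sialomucins were above the limit. Emcn, which encodes endomucin, a marker of capillary and venous endothelium, reached log2 signals of 11.56, 11.96 and 11.17 across replicates 1, 2 and 3. Replicate 2 was the highest, and its signal of 3994 was 1.73 times the 2307 of replicate 3. The mean was 11.56 ± 0.40 (SD, n = 3; adjusted p = 0.0014 from limma).

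Cd34 encodes a surface sialomucin shared by endothelium and blood stem cells. Across replicates 1, 2 and 3 its log2 signals were 10.57, 10.20 and 9.38. It had the widest range of the 9 genes, 1.19, with a signal of 1522 in replicate 1 against 668 in replicate 3. It averaged 10.05 ± 0.61 (SD, n = 3) and was above the limit (adjusted p = 0.00729 from limma).

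Podxl encodes podocalyxin, the sialomucin of podocytes that endothelial cells also make. Its log2 signal was 9.26 in each of the 3 samples, or a signal of 614. With the usual spread of other probesets in place of its SD of 0, it was above 100 (adjusted p = 0.0143 from limma), and with 1 sample left out, when the 2 others are again equal, the adjusted p lay between 0.118 and 0.148. The markers of podocytes were low in the same cells: 4 of 4 measured genes were below 100, beside 60.2% of all genes. Their log2 signals were 6.10 for Nphs1, 5.92 for Synpo, 5.41 for Wt1 and 5.02 for Tcf21 in each sample. The summed signal of these 4 was 204 in each sample.

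Cd99l2 encodes a CD99-related protein of endothelial cell contacts that takes part in neutrophil passage in mice. Replicates 1 and 2 both had a log2 signal of 7.32, and replicate 3 had 7.38. As deposited it was the 1 gene of the 9 with its highest value in replicate 3 alone, against 20.3% of the genes whose mean signal reached 100. After quantile normalization or a shift to equal medians Pecam1 and Podxl were highest there too. The mean of 7.34 ± 0.03 (SD, n = 3) was 1.62 times the limit (adjusted p = 0.00469 from limma). The call was lost without any 1 of the samples (adjusted p from 0.102 to 0.355), and when probesets with 2 equal values were also given the usual spread (adjusted p = 0.228). Cd99 itself had no probeset of its own and was not analysed here.

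The adhesion genes did not differ between the samples to the same extent. Of the 9 genes 5 had an SD under 0.1 on the log2 scale, namely Pecam1, Icam1, Sele, Podxl and Cd99l2, and these are the genes with equal values in at least 2 samples. Icam2, Vcam1, Cd34 and Emcn had SDs of 0.26 to 0.61. A range over 1 was found in 2 of the 7 genes whose mean reached 100, Cd34 and Vcam1, against 9.6% of the 6127 genes with such a mean. Replicate 3 alone was the lowest for 5 of the 7, against 24.9% of these genes. The median range was 0.45 over the 7 adhesion genes and 0.18 over the 6127. Ties were not alike in the 2 sets: 27.5% of the 6127 genes had 3 equal values, against 1 of the 7. Such a gene has a range of 0 and cannot be lowest in replicate 3 alone, which lowers the shares and the median range. Among the 6127 the median SD was 0.10, and 0.19 when genes with 3 equal values were left out. With 1 group of samples these differences between samples have no test.

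For 4 of these 5 genes replicate 3 was lowest under both other scalings. After quantile normalization Icam2, Vcam1, Cd34 and Emcn were again lowest in replicate 3, with ranges of 0.37, 0.92, 1.10 and 0.78. Pecam1 was then highest in replicate 3, at 10.10 against 10.06 and 10.07, and was not the lowest there either when the columns were shifted to equal medians.

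**Figure D2:**
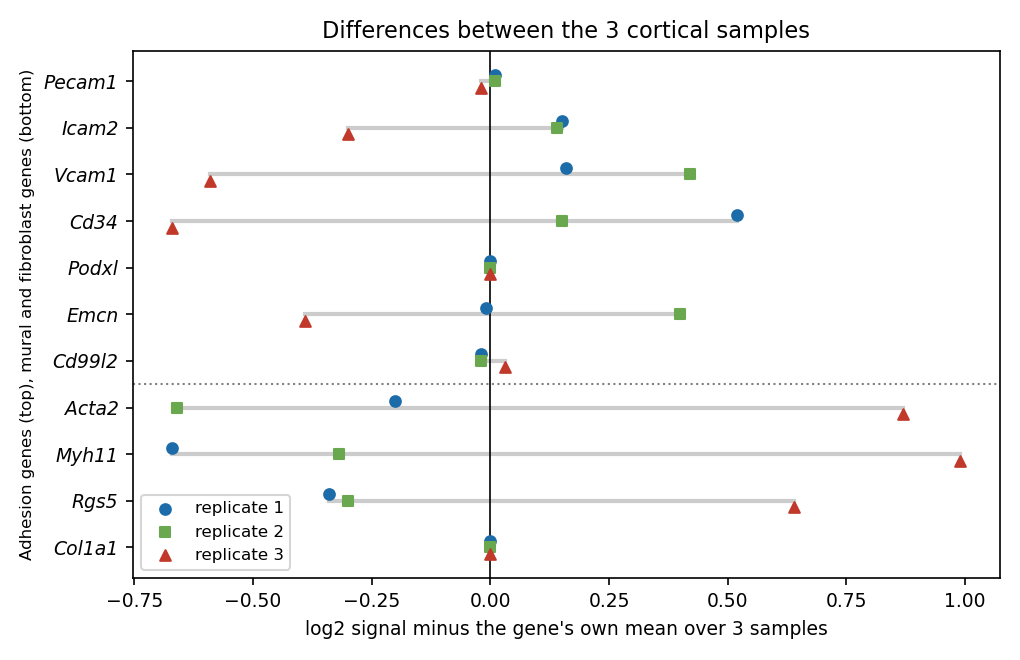
Log2 signal minus the gene's own mean over the 3 samples (x axis) for the 7 adhesion genes above a signal of 100 (top) and for the 4 genes of mural cells and fibroblasts with a mean of 100 or more (bottom); each symbol is 1 sample and the grey line spans the range. Replicate 3 lies at -0.67 for Cd34, -0.59 for Vcam1, -0.39 for Emcn and -0.30 for Icam2, and at 0.99 for Myh11, 0.87 for Acta2 and 0.64 for Rgs5. For the other plotted genes it lies at -0.02 for Pecam1, 0.0 for Podxl, 0.03 for Cd99l2 and 0.0 for Col1a1.

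Several genes of smooth muscle cells and pericytes, the mural cells around vessels, were highest in replicate 3. Acta2, smooth muscle actin, had 8.43, 7.97 and 9.50 as log2 signals of replicates 1, 2 and 3, Myh11, smooth muscle myosin, had 7.79, 8.14 and 9.44, and Rgs5, a pericyte gene, had 9.65, 9.70 and 10.64. Acta2 and Rgs5 were above 100, and Myh11 was neither. Of the 9 mural and fibroblast genes 2 were above, 4 were below and 3 were neither, and their summed signal was 1739, 1734 and 3422 in replicates 1, 2 and 3. Acta2, Myh11 and Rgs5 gave signals of 724, 696 and 1592 of this sum in replicate 3, and 345, 221 and 804 in replicate 1. Pdgfrb and Des were also highest in replicate 3, at 6.75 and 5.91. Col1a1 and Col1a2 were equal in all samples, at 6.92 and 6.09, and Dcn was highest in replicate 2. Pdgfra, the defining receptor of fibroblasts, was below the limit at 4.72 in each sample. The part of these cells in the values of Vcam1, Cd34, Emcn and Icam2 was not tested.

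Endothelial genes outside the 10 were set beside the label of the samples. All 10 of 10 endothelial markers were above 100, among them Kdr, Cdh5, Tek and Tie1, against 18.0% of all genes. Their summed signal was 8556, 8082 and 7416 in replicates 1, 2 and 3. Of 8 proximal tubule genes 7 were above too, so passing 100 does not by itself show which cells were sorted. Kdr, a VEGF receptor, was lower in replicate 3, with log2 signals of 9.72, 9.70 and 8.79. Cdh5, the cadherin of endothelial junctions, was at 10.62 in all 3, and Erg, an endothelial ETS factor, was at 8.92. Tek had 10.55, 10.44 and 10.24, but its promoter drives the GFP used for the sort, so it is no independent check. Of the 10 endothelial genes 4 had their lowest value in replicate 3 alone.

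Several adhesion genes are also made by blood cells, so the markers of those cells stand beside them. Of 10 leukocyte markers 10 were below 100, beside 60.2% of all genes, including Ptprc (CD45) at 5.12, Cd68 at 5.19 and Csf1r at 4.92 in each sample, and Adgre1 at 4.36. Their summed signal was 311, 329 and 312 in replicates 1, 2 and 3. Of 5 measured platelet markers 4 were below, beside the same share of all genes. Itga2b was at 6.12, 6.06 and 6.06 and Pf4 at 4.50, 4.50 and 4.62, and Treml1 was neither, at 6.29 in each. The part of blood cells in the adhesion values was not tested.

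Genes of the proximal tubule, which the sort should leave out, were measured as well. The study found a mainly proximal tubule profile among the genes particular to its cortical endothelial samples and took it as a minor contamination. Of 8 such genes 7 were above 100, including the endocytic receptors Lrp2 and Cubn, and their summed signal was 12282, 10608 and 10751 in replicates 1, 2 and 3. Kap, an androgen-regulated gene of this segment, had log2 signals of 13.03, 12.88 and 12.68. Slc5a2, a glucose transporter, had 8.50, 7.56 and 9.14 and was neither. Kap alone gave a signal of 8364, 7555 and 6567 of these sums, and the median deviation of the 8 genes from their own means was 0.09, -0.17 and 0.12 on the log2 scale in replicates 1, 2 and 3. The part of tubule cells in the adhesion values was not tested.

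The leukocyte receptors that bind the adhesion molecules were mostly below 100, and most genes listed as membrane linkers were above it. Of 9 measured leukocyte receptors 8 were below 100, beside 60.2% of all genes. By limma 0 were above, or 1, Itga9, at an unadjusted p under 0.05. In 8 of the 9 the 3 samples had equal values, so these were tested with the spread of other probesets. Those below included Itgal and Itgb2, which form LFA-1, at 5.13 and 5.51 in each sample, Itgam at 4.05 and Itga4, a subunit of VLA-4, at 5.54. Itga9, at 7.76 in each sample, was neither (adjusted p = 0.0542 from limma, unadjusted p = 0.00953). Of 10 linker genes 9 were above, beside 18.0% of all genes, and 1, Actn1, was below, at 6.02 in each sample. Ezr, Rdx and Msn encode ezrin, radixin and moesin, which tie surface proteins to actin, and had mean log2 signals of 7.62 ± 0.07, 10.25 ± 0.10 and 8.98 ± 0.17 (SD, n = 3). Nherf1 and Nherf2, scaffolds that bind podocalyxin, were above as well, with Nherf2 at 10.49 in each sample. The list is wider than anchors of sialomucins and ICAMs: Clic4, Clic5, Actn4 and Cav1 are in it and were above too.

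Of 9 measured genes of junctions and transmigration 5 were above the limit and 3 were below. Those above were Cdh5, F11r (JAM-A), Jam2, Esam and Cd47, and those below were Nectin2, Pvr and Alcam. The log2 signals of F11r were 8.48, 8.55 and 8.02, again lowest in replicate 3, whereas Jam2 had 9.03, 9.24 and 9.33, with its lowest value in replicate 1. Jam3 was neither, at 6.88 in each sample.

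Among 8 other vascular adhesion genes 1 was above 100 and 5 were below, shares near the 18.0% and 60.2% of all genes. Clec14a, an endothelial C-type lectin gene, was the gene above, with log2 signals of 7.91, 7.35 and 8.08. Icam4, Icam5, Madcam1, Glycam1 and Selplg were below, and Madcam1 and Glycam1, the addressins of gut and lymph node venules, were at 5.50 and 4.74 on average. Aoc3, the gene of vascular adhesion protein 1, which smooth muscle also makes, had 6.36, 5.52 and 6.60 and was neither. Stab1 was also neither, at 6.69, 6.59 and 6.59.

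**Figure D3:**
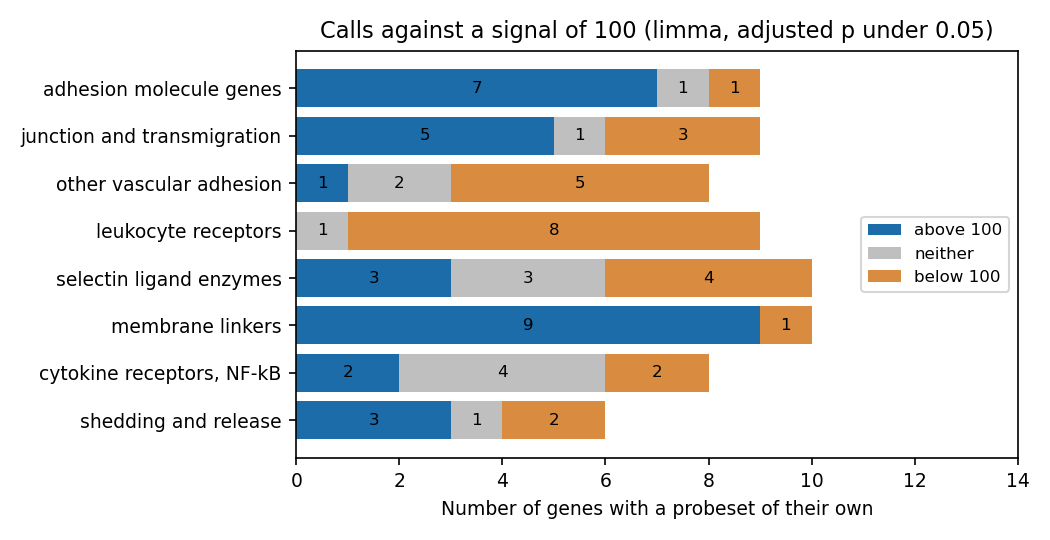
Number of genes (x axis) above a signal of 100, neither above nor below, and below it, for the 9 measured adhesion genes (top) and for 7 lists of related genes, by limma with adjusted p under 0.05. Of the adhesion genes 7 were above, of the linker genes 9 of 10 were, and of the leukocyte receptors 8 of 9 were below. Over all genes 18.0% were above and 60.2% were below.

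The enzymes that build selectin ligands were mixed, with 3 of 10 above, 4 below and 3 neither. Gcnt1, a core 2 branching enzyme, was above at 9.21 ± 0.06, and St3gal6 and B4galt1 were above as well. The fucosyltransferases Fut4 and Fut7, which complete the ligand, were below at 4.89 and 5.50 in each sample, as were the sulfotransferases Chst1 and Chst4. St3gal4 had 6.78, 6.78 and 7.56 and was neither, as were Chst2 and B3gnt3.

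Of 8 measured genes of cytokine receptors and NF-kB signaling, which control Sele, Icam1 and Vcam1, 2 were above the limit and 2 were below. Tnfrsf1a, the first TNF receptor, was above with log2 signals of 8.16, 8.0 and 8.0, and Il6st, the shared receptor of IL-6 cytokines, was above at 9.84. Tnfrsf1b, the second TNF receptor, was below at 6.08 in each sample, as was Tnfaip3, an NF-kB target and inhibitor, at 5.46. Rela and Nfkbia were neither, at 7.19 and 7.33 in each, and so was Il4ra. Irf1, a transcription factor induced by interferon, had 7.80, 7.89 and 6.39 in replicates 1, 2 and 3, and was neither (limma, adjusted p = 0.365 for a higher mean).

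Of 6 measured genes of shedding and release 3 were above, namely Adam10 and Adam17, the proteases that cleave surface adhesion molecules, and Cd63, a tetraspanin of Weibel-Palade bodies. Adam17 had log2 signals of 7.89, 8.41 and 8.41, and Adam10 was at 8.90 in each sample. Vwf, the von Willebrand factor gene of the granules that also store P-selectin, was neither, at 6.46 in each sample (limma, adjusted p = 0.195 for a lower mean). Rab27a and Rab3d, which act in granule release, were below.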

How the data were processed

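RNA of 3 samples of sorted endothelial cells was amplified in 1 round and measured on Affymetrix arrays of the type Mouse Gene 1.0 ST. The authors deposited log2 signals per probeset, 1 column per sample, normalized between arrays. The paper names RMA in GeneSpring GX and the submitters' processing notes name Affymetrix Expression Console, and which arrays were normalized together was not stated there. The medians were 5.70, 5.70 and 5.66 in replicates 1, 2 and 3, and Pearson's r across probesets was 0.941 to 0.950.

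Of 35557 probesets 21789 had 1 gene in the probe table, 1621 had several and 12147 had none, and only the first kind was named, although all entered the fit. Where 1 gene had more than 1 probeset, that with the highest mean stood for it. The log2 signal minus log2 of 100 was fitted by an intercept (limma 3.58.1, R 4.3.3) with a mean-variance trend. The trend and the prior (0.937 degrees of freedom) came from probesets without 3 equal values, and a probeset with 3 equal values was given the median SD of the others at its mean with 2 degrees of freedom. The fit was tested on simulated data in which some probesets had 3 equal values. Pairs of equal values were not simulated, so that test does not cover the calls of genes with 2 equal values. Of the 133 genes of 16 lists 125 were measured. Named were all 10 genes, up to 4 genes of each list by their written order, the genes behind counts of 5 or fewer, and list genes with a range over 1. Some further list genes were named after their values were seen. The 10 genes and the lists were chosen with earlier results of these data known. Alternatives were limits of 50 and 200, every sample at the limit with no test, an SD of 0 kept, quantile normalization, equal column medians, a fit without the variance trend, adjustment over probesets of 1 gene, the lowest probeset of a gene and each replicate left out. A further one, the usual spread also for 2 equal values, was chosen after seeing the data. Promoter windows came from RefSeq.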

Additional observations from a re-analysis of the deposited data

How the results depend on the processing

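No paired analysis was possible because the 3 samples form 1 group. Quantile normalization, equal column medians, a fit without the variance trend and adjustment over probesets of 1 gene left all 9 adhesion genes on the same side of the test. Taking the lowest probeset of a gene could not change them, since each had 1. With a limit of 50, 0 adhesion genes were below, Icam1 was above it (adjusted p = 0.00125) and Sele was no longer below (adjusted p = 0.657 for a mean above), and 8466 genes in all were above and 6278 below. With a limit of 200, 3 adhesion genes were below, among them Icam1 (adjusted p = 0.000501) and Cd99l2 (adjusted p = 0.00667), Podxl was not above (adjusted p = 0.0537), 1453 genes in all were above, and 29 genes of the lists were above, against 49 with the limit of 100. With the SD of 0 kept, 2 adhesion genes were below, since Icam1 was called (adjusted p = 0.0494). Without a test, 2 adhesion genes were below 100 in every sample, since Icam1 was in 3 of 3, and 5583 genes in all were above. With the usual spread also for 2 equal values, Cd99l2 was not above (adjusted p = 0.228) and 1998 genes in all were. Pecam1 was then still above and Sele still below, with larger adjusted p from limma, 0.0151 and 0.0453, against 0.000183 and 0.000934 in the main fit.

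Without 1 replicate, 4 to 5 adhesion genes were above 100 and 0 to 1 were below, against 7 and 1 with all samples. The range of adjusted p was 0.118 to 0.148 for Podxl, 0.102 to 0.355 for Cd99l2, 0.00477 to 0.088 for Pecam1 and 0.023 to 0.071 for Sele, the highest of Pecam1 and Sele without replicate 3. Icam2, Vcam1, Cd34 and Emcn stayed above with each replicate left out. Over all genes 1504 to 1798 were above and 2249 to 7083 below, and 28 to 35 list genes were above. A pair of samples leaves 1 degree of freedom, and pairs with equal values had the usual spread of the others. The 3 arrays allow no test between samples, and a signal under 100 shows a weak signal and not the absence of a transcript.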

Other observations

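Markers of vessel types were mostly above a signal of 100. Of 10 such genes 8 were above, among them Nr2f2 and Ephb4 of veins, with log2 signals of 7.29, 7.37 and 7.41 and of 7.54, 7.54 and 7.41 in replicates 1, 2 and 3, Plvap of fenestrated capillaries, with 8.93, 8.45 and 8.44, and Efnb2 of arteries, with 10.00, 9.97 and 9.89. Ackr1, a gene of the venules in which leukocytes leave the blood, was below at 4.24 in each sample. Ehd3, a gene of glomerular endothelium, was neither, with 8.07, 7.44 and 6.62, and Igfbp5 was above with 9.81, 9.49 and 8.63. Both had their lowest value in replicate 3 and their highest in replicate 1. Over the whole list replicate 3 alone was lowest for 6 of the 9 genes with a mean of 100 or more.

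Of 5 markers of lymphatic endothelium 4 were below 100, beside 60.2% of all genes, namely Prox1, Lyve1, Pdpn and Reln, and Flt4 was neither, at 6.39 in each sample. Of 6 genes of parietal and mesothelial cells 4 were below, a share near the 60.2% of all genes. These were Cldn1, Msln, Upk3b and Krt19, and Pax8 and Krt7 were neither.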
